A study of Mus musculus with 3 samples.

Results

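miR-9 was measured in 3 samples of Müller glia (MG), the main glia of the retina. The rule listed 2 miRNAs by their miRBase identifiers, miR-9 (the 5p arm, MIMAT0000142) and miR-9* (the 3p arm, MIMAT0000143). It found 1 of the 2 among the 602 miRNA rows of the table, namely miR-9. miR-9* was not analysed here, and the ratio of both arms could therefore not be computed. All mice carried the Rlbp1-CreER driver, which is active in MG, and the tdTomato reporter. The wild type sample was pooled from 40 adult retinas without damage. The light damage (LD) sample was pooled from 44 adult retinas collected 7 days after 8 h of light at 10000 lux. The Dicer-cKO sample came from 26 adult retinas of mice that also carried the Dicerf/f alleles, 1 month after deletion of Dicer in these cells. Tamoxifen was given to all at 75 mg/kg, on 3 days per the labels and on 4 days per the study's methods, at an age of 2 to 3 months. The mice for LD were also crossed to albino Swiss Webster mice with the leucine variant of RPE65, so that strain and damage cannot be told apart. tdTomato+ cells were sorted, the sorts were pooled, and mature miRNAs were tagged and counted, without amplification, by NanoString nCounter. Each condition was 1 pooled sample, so there was no spread between replicates and no test, and all intervals are 95% intervals that cover counting error only.

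miR-9 is a miRNA of the nervous system, abundant in neural progenitors and in some glia. Its hairpin precursor is cut by Dicer into a short duplex, of which one strand is loaded onto an Argonaute protein and guides it to mRNAs that pair with the seed, the bases 2 to 8 of the miRNA. In progenitors it is known to repress Nr2e1 (TLX), a receptor that keeps them dividing, and Hes1, an effector of Notch signalling. In the retina it acts with let-7 and miR-125 in the switch of progenitors from early to late fates, and miR-9 together with miR-124 is used to drive other cell types toward neurons.

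The sequences show what the assay counts and why it cannot assign the counts to a gene. Both arms were taken from RefSeq (GRCm38.p6) and are shown with the seed in capitals.
mmu-miR-9-5p: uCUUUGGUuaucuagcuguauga
mmu-miR-9-3p: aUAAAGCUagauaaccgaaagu

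The 5p arm has 23 bases and the 3p arm 22, and the longest stretch over which they pair without a mismatch is 12 bases, GGUUAUCUAGCU in the 5p arm. Among 1679 mouse mature miRNAs in the RefSeq table, 0 others share the seed of the 5p arm and 0 others that of the 3p arm. miR-9 thus has no relative with its seed in that table. The same 5p arm is encoded by 3 hairpins on different chromosomes, Mir9-1 at chr3:88215598-88215686, Mir9-2 at chr13:83738814-83738885 and Mir9-3 at chr7:79505264-79505353, each on the + strand. They are shown with the mature 5p arm in capitals.
Mir9-1: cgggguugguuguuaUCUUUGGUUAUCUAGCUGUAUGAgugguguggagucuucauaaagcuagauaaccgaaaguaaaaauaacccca
Mir9-2: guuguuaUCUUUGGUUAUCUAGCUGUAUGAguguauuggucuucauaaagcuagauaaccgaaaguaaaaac
Mir9-3: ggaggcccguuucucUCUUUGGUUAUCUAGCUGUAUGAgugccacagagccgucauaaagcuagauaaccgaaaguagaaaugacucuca

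Between both arms lie 16 bases in Mir9-1, 14 in Mir9-2 and 16 in Mir9-3, and these loops differ in sequence. The mature arms are identical in all 3, so the values below are the sum over the 3 genes.

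miR-9 was among the most abundant miRNAs of MG under every condition and was lower after LD and lowest after Dicer deletion in the authors' normalization. The wild type sample had 75416 normalized counts of miR-9 (interval 74838 to 75997), the LD sample 38870 (38322 to 39426) and the Dicer-cKO sample 18100 (17552 to 18665). The 3 intervals did not overlap. Within its sample miR-9 held rank 3 of the 602 miRNAs in each of the 3 samples. Its distance to the neighbours in rank exceeded counting error with 1 exception. In wild type MG it was 0.688 times the next higher miRNA (0.681 to 0.695) and 1.54 times the next lower (1.53 to 1.56). After LD these ratios were 0.748 (0.734 to 0.762) and 1.95 (1.90 to 1.995). In the Dicer-cKO sample miR-9 and the next higher miRNA, at 18202 normalized counts, did not differ beyond counting error, with a ratio of 0.994 (0.952 to 1.04), whereas the next lower was at 12106. The efficiency of the single probes is not known, so the order of different miRNAs within a sample is an order of counts.

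**Figure D1:**
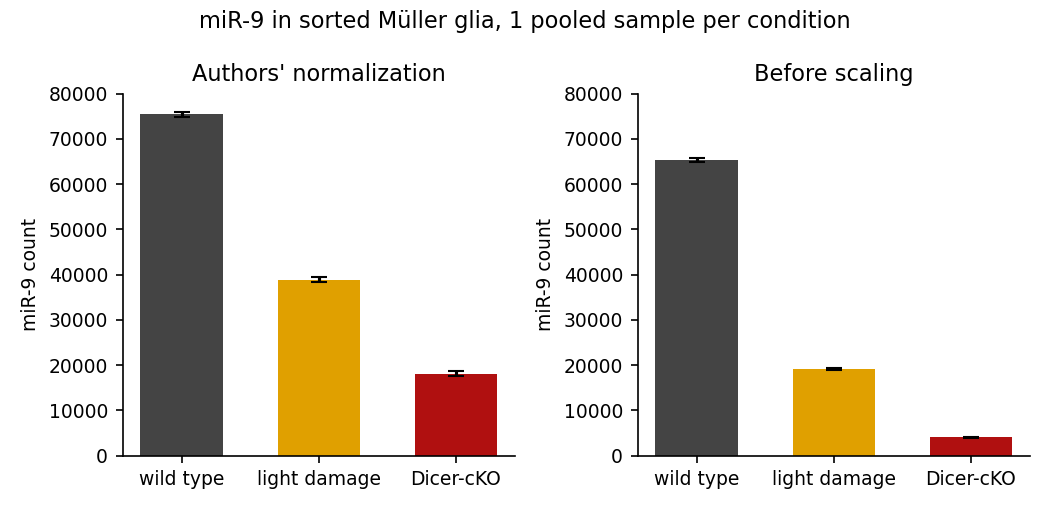
miR-9 counts in the 3 samples (wild type, light damage, Dicer-cKO), as normalized by the authors (left) and before scaling (right), with exact Poisson 95% intervals as error bars. The normalized counts are 75416, 38870 and 18100, those before scaling are 65298, 19099 and 4095, and the intervals are small beside the differences.

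The normalized values rest on different numbers of counted molecules. The authors set 1 factor per sample on 4 housekeeping mRNAs, and this factor, read back from the values, was 1.15 for the wild type, 2.04 for the LD and 4.42 for the Dicer-cKO sample. Before scaling the counts of miR-9 were 65298, 19099 and 4095 in the wild type, LD and Dicer-cKO samples, of 678722, 230232 and 44258 miRNA counts, respectively. The least certain level was thus that of the Dicer-cKO sample. The 6 highest ERCC rows, control molecules that were not scaled, went the other way, with a geometric mean that was 1.13 times the wild type value in the LD sample and 1.42 times in the Dicer-cKO sample. Scaled to these rows in place of the housekeeping mRNAs, the ratio of miR-9 to wild type was 0.258 for LD and 0.0442 for Dicer-cKO MG. Taking 20 counts more or fewer as background moved the ratios between samples by less than counting error.

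In the authors' normalization miR-9 was lower after LD, at 0.515 of the wild type level (interval 0.507 to 0.524), a log2 ratio of -0.96. It was not lower with Gapdh as the only reference. Nor was it lower with a total that leaves out the most abundant miRNA after LD. That row was chosen for its LD count, so leaving it out raises the LD ratio by construction and nothing is read from it. The 1.94-fold decline in the authors' normalization did not reach 2-fold. Of the 104 miRNAs whose mean count over the samples was at least 100, 41 did (39.4%). With Gapdh alone 15 miRNAs reached it, of a set chosen anew by the rescaled mean, whose size is not given here. miR-9 itself reached 2-fold with Actb, Rpl19 or B2m alone, at ratios of 0.436, 0.301 and 0.496. With B2m this was not beyond counting error (0.488 to 0.504). The median ratio of these 104 miRNAs was 0.613. A lower ratio than that of miR-9 was found for 42 of them and a higher one for 61, so that miR-9 lay near the middle.

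After Dicer deletion the authors' normalization gave a miR-9 level of 0.240 times that of wild type MG (0.233 to 0.248), a log2 ratio of -2.06 and a 4.17-fold decline. A decline of 2-fold or more was found for 63 of the 104 miRNAs (60.6%), miR-9 among them, and the median ratio was 0.388. Of the 104, 30 had a lower ratio than miR-9 and 73 a higher one. With the same total miRNA count the miR-9 ratio was 0.962. At that total 10 miRNAs declined 2-fold or more, of a set chosen anew by the rescaled mean and not of the 104. By the median of ratios the miR-9 ratio was 0.652, so that miR-9 did not reach 2-fold under either scaling. With a total that leaves out the most abundant miRNA after LD, the ratio of 0.988 (0.957 to 1.02) did not differ from 1 beyond counting error. That row was chosen for its LD count after seeing the data, so this ratio is a description only. In a pooled sort, fewer cells with miR-9 and less miR-9 per cell cannot be told apart.

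In the authors' normalization the level after LD was 2.15 times that in Dicer-cKO MG (2.08 to 2.22), whereas with the same total miRNA count it was lower, at 0.897 times. At least 2-fold higher levels after LD were found for 43 of the 104 miRNAs (41.3%), with a median ratio of 1.67, and 39 of the 104 had a higher ratio than miR-9. The number at least 2-fold higher was 74 when Gapdh alone was the reference and 10 at equal miRNA totals. Each is of a set chosen anew by the rescaled mean and not of the 104. The LD and Dicer-cKO declines are both taken against the same wild type sample.

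**Figure D2:**
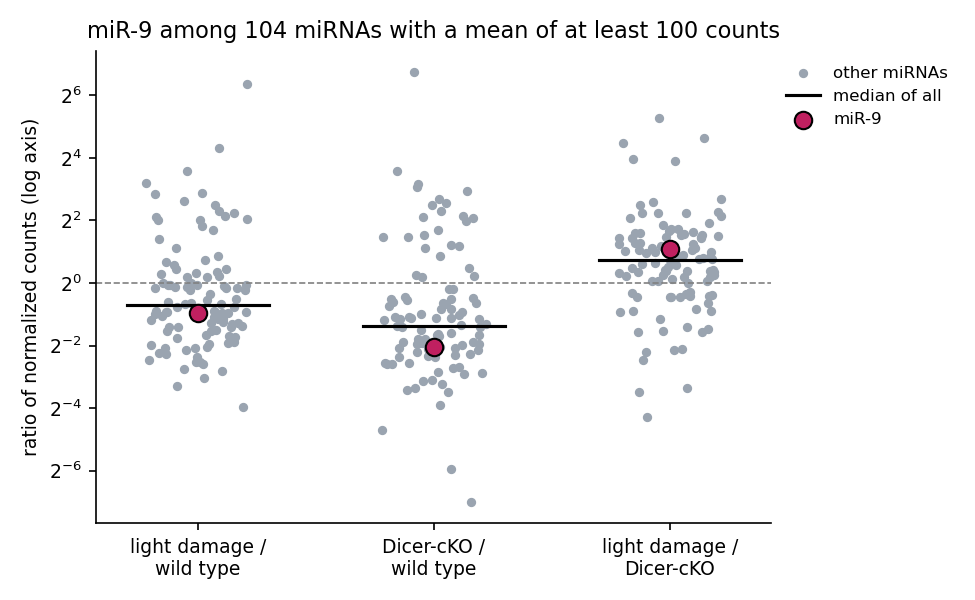
Ratios of normalized counts (log axis) for the 104 miRNAs whose mean count was at least 100, in 3 comparisons, each grey point 1 miRNA, the line their median and the large point miR-9. miR-9 lies at 0.515, 0.240 and 2.15, next to medians of 0.613, 0.388 and 1.67 and inside the bulk of the points.

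The housekeeping mRNAs, on which these ratios depend, did not move together. Actb, which encodes a cytoskeletal protein, stood at 8068 normalized counts in the wild type, 9542 in the LD and 8481 in the Dicer-cKO sample. Gapdh, an enzyme of glycolysis, had 798.5, 379.57 and 621.63. Rpl19, a ribosomal protein, had 741.91, 1268.97 and 701.19. B2m, a component of MHC class I, had 388.5, 403.99 and 502.27. Gapdh was thus lowest and Rpl19 highest after LD, whereas in the Dicer-cKO sample each of the 4 lay between 0.778 and 1.29 times its wild type level. Per count of Gapdh the wild type sample held 94.4 counts of miR-9, the LD sample 102 and the Dicer-cKO sample 29.1. Per count of Rpl19 the wild type sample held 102, the LD sample 30.6 and the Dicer-cKO sample 25.8. The decline after Dicer deletion was seen against each mRNA, but the decline after LD was not seen against Gapdh.

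**Figure D3:**
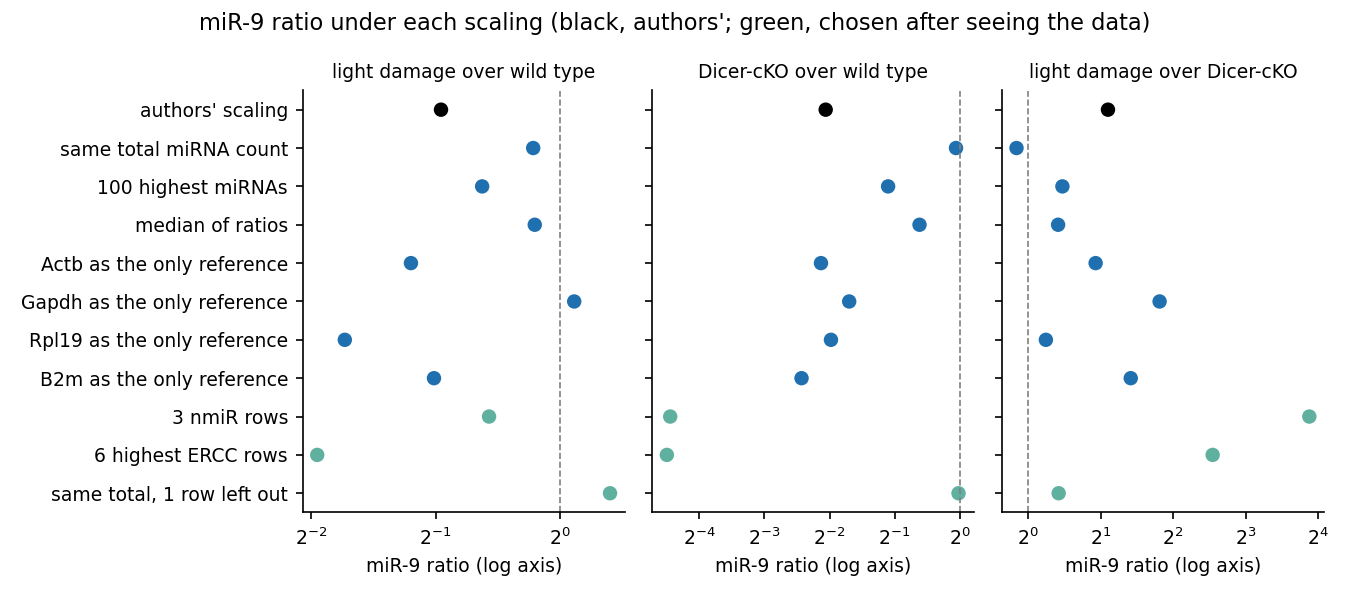
miR-9 ratio (log axis) for LD over wild type, Dicer-cKO over wild type and LD over Dicer-cKO under 11 scalings, in black the authors' scaling, in blue the other 7 and in green 3 that were chosen after seeing the data; the dashed line marks a ratio of 1. LD over wild type lies between 0.258 and 1.32, and Dicer-cKO over wild type lies between 0.0442 and 0.988.

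Under all 11 scalings tried, the ratio of Dicer-cKO to wild type MG was below 1, and in 10 of them by more than counting error. The exception was the total without the most abundant miRNA after LD, given above. The ratio of LD to wild type was below 1 in 9 of the 11. It was above 1 with Gapdh as the only reference, at 1.08 (1.07 to 1.10), and with the same total without the most abundant miRNA after LD, at 1.32 (1.30 to 1.35). The row left out of that total was chosen for its LD count, which raises the ratio by construction. Only the value above 1 with Gapdh is therefore read. LD exceeded Dicer-cKO MG in 10 of the 11. These 10 include the total without that row, at 1.34 (1.30 to 1.39), which is raised by construction and not read. With the same total miRNA count the ratio was 0.897 instead (0.867 to 0.928). The scalings share references, since the authors' scaling uses the 4 mRNAs that also served singly. The tallies are therefore not counts of separate checks.

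As a share of all miRNA counts, which needs no reference mRNA, miR-9 differed far less between the samples than as a normalized count. It made up 9.62% of the miRNA counts of the wild type sample (interval 9.55 to 9.69), 8.30% of the LD sample (8.18 to 8.41) and 9.25% of the Dicer-cKO sample (8.98 to 9.53). The LD share was the lowest, and the wild type and Dicer-cKO shares lay next to each other without overlap of their intervals. These shares depend on the few most abundant rows. One of them, the row with the highest count after LD, took 3.05% of the counts of the wild type, 36.9% of those of the LD and 5.61% of those of the Dicer-cKO sample. Without it the share of miR-9 was 9.92% in the wild type, 13.1% in the LD and 9.80% in the Dicer-cKO sample. The row was chosen for its count in the LD sample, so leaving it out raises the LD share most by construction, and nothing is read from the new order. The same holds for the scaling to the total without this row. Without the 2 rows above miR-9 in the wild type sample, its share was 19.4% in the wild type, 9.78% in the LD and 12.3% in the Dicer-cKO sample. Those 2 rows were chosen for their wild type counts, which raises the wild type share most by construction, so nothing is read from that order either.

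**Figure D4:**
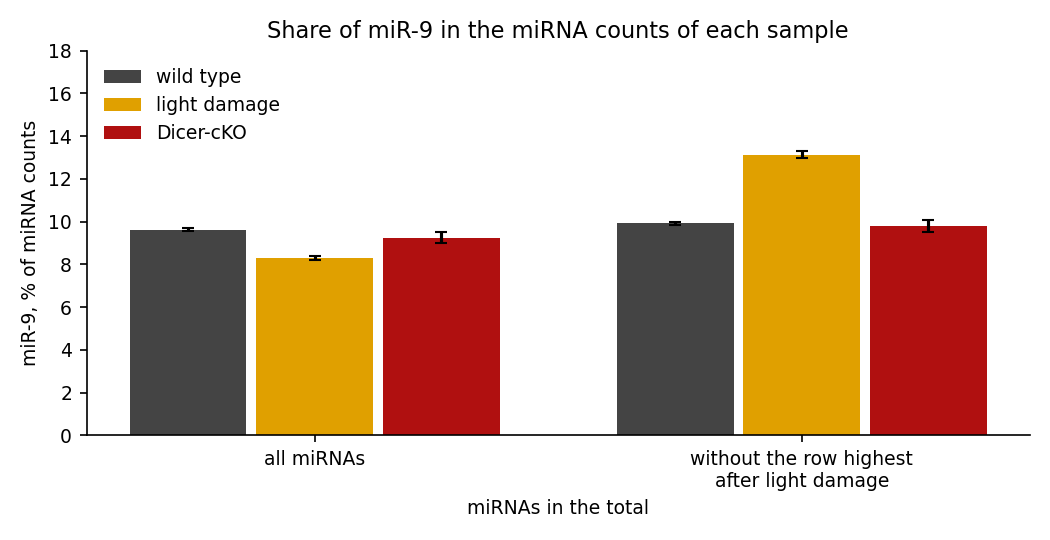
Share of miR-9 in the miRNA counts (percent) of the wild type, light damage and Dicer-cKO samples, for all miRNAs and without the row of highest count after light damage, with exact binomial 95% intervals as error bars. The 3 samples lie between 8.30% and 9.62% for all miRNAs. The row left out was chosen for its count after light damage, which by construction raises that sample's share most.

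miR-9 was also set against the 2 most abundant miRNAs of wild type MG within each sample, where scaling cancels. Its count was 0.264 times that of the most abundant wild type row in the wild type sample (0.262 to 0.266), 0.748 times in the LD sample (0.734 to 0.762) and 0.595 times in the Dicer-cKO sample (0.572 to 0.618). The ratio was thus 2.83 times its wild type value after LD (2.78 to 2.89) and 2.25 times after Dicer deletion (2.17 to 2.34). Against the wild type row of rank 2 its count was 0.688 times in the wild type, 2.04 times in the LD (1.99 to 2.09) and 0.994 times in the Dicer-cKO sample, a ratio 2.96 times its wild type value after LD (2.89 to 3.04) and 1.45 times after Dicer deletion (1.38 to 1.51). These 2 rows are among 22 other miRNAs of more than 3000 normalized counts in the wild type sample, which went both ways. Beyond counting error, the ratio of miR-9 to them rose after LD for 11 and fell for 6, with a median change of 1.05 over all 22. After Dicer deletion it rose for 8 and fell for 11, with a median of 0.910. All these rows were chosen for their wild type counts, a choice that favours rows with lower counts elsewhere, so the changes are a description only. Over the 104 miRNAs, chosen by their mean over the samples, 42 had a lower ratio than miR-9 after LD and 30 after Dicer deletion.

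The miRNAs whose levels ran most like those of miR-9 over the 3 samples were sought by the distance between the pairs of log2 ratios to wild type (LD and Dicer-cKO), which no scaling changes. Of the 36 others whose mean count was at least 1000, the nearest was MIMAT0000514, at a log2 distance of 0.050. Its normalized counts in the wild type, LD and Dicer-cKO samples were 13955, 7419 and 3296. The next was MIMAT0000383 at 0.16, with 13294, 6634 and 3557 normalized counts, and the third lay at 0.26, compared with a median distance of 1.08. These 2 were chosen for ratios close to those of miR-9, so the closeness itself is no finding. Their ratios were 0.532 and 0.499 after LD and 0.236 and 0.268 after Dicer deletion. Among the 103 others whose mean count was at least 100, MIMAT0000514 was again the nearest, but MIMAT0000383 was not among the 3 nearest. The table lists miRNAs by identifier only and the sources used here do not pair these with names, so miRNAs that mark neurons, photoreceptors, microglia, blood or vessels could not be found in it, nor could the MG label be checked against other MG miRNAs. The part of other cells in the miR-9 values was not tested.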

How the data were processed

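The authors deposited 1 table of 626 rows and 3 samples, holding a signal. They had made it from NanoString molecule counts in nSolver 4.0, by background correction and normalization to 4 housekeeping mRNAs, 8 negative and 6 positive controls. Its other rows are 14 ERCC and 6 nmiR rows, the content of the latter not being given in the sources used here. The factor of a sample was recovered from its lowest value and the housekeeping and nmiR rows. Divided by it, 243 of 243 Dicer-cKO miRNAs above the lowest value gave a whole count plus the decimals of the ERCC rows within 0.51 normalized counts, which 23.1% would do at steps of that size. For LD it was 246 of 246 (50.1%) and for wild type 342 of 342 (88.3%), so that the check says little about the wild type counts. Rounded counts gave exact Poisson intervals of levels and Clopper-Pearson intervals of shares and ratios; relative changes between samples have Wald intervals on the log scale.

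The miR-9 row, the 104 miRNAs of mean at least 100 and the 3 nearest rows were named by rule. Members, lists and comparisons were chosen with earlier results of these data known. The planned arm ratios and cell type lists could not be computed, for want of a miR-9* value and of names. At most 2 identifiers without a name are printed. Gene symbols of the housekeeping mRNAs, the only ones needed, matched for all 4 in RefSeq (GRCm38.p6). The wild type and Dicer-cKO data had been published before and were normalized again together with LD, so that for the LD comparisons measurement series and condition cannot be told apart. The software was scipy 1.17.1, pandas 2.3.3 and numpy 2.4.6 under Python 3.11.15, and figures were drawn with matplotlib 3.10.9.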

Additional observations from a re-analysis of the deposited data

How the results depend on the processing

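No paired analysis was possible because no condition has more than 1 sample. The scalings by nmiR rows, by ERCC rows and by the total without the most abundant miRNA after LD were chosen after seeing the data. Of the 6 nmiR rows, the 3 above 100 counts in every sample were used. From wild type to Dicer-cKO these went from 4060 to 31874, from 533 to 2045 and from 14775 to 70385. They did not rise alike, and what they count is not known here. Other settings for arm ratios were not run, since no arm ratio was computed. For the changed values below the cause was not tested. Subtracting or adding 20 counts before scaling moved each miR-9 ratio by less than counting error.

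The miR-9 ratio of LD to wild type, 0.515 in the authors' scaling, was 0.862 with the same total miRNA count, 0.649 with the 100 highest miRNAs, 0.870 by the median of ratios, and 0.436 with Actb, 1.08 with Gapdh, 0.301 with Rpl19 and 0.496 with B2m as the only reference. It was 0.674 with nmiR rows, 0.258 with ERCC rows and 1.32 with the reduced total. The ratio of Dicer-cKO to wild type, 0.240, was in the same order 0.962, 0.467, 0.652, 0.228, 0.308, 0.254 and 0.186, and then 0.0458, 0.0442 and 0.988. LD over Dicer-cKO, at 2.15, was 0.897, 1.39, 1.33, 1.91, 3.52, 1.19 and 2.67, and then 14.7, 5.84 and 1.34.

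The number of miRNAs at least 2-fold lower after LD, 41, was 24 at 3-fold, 14 at a mean of at least 1000, 225 with no filter and a pseudocount of 1, and 15 with Gapdh alone. After Dicer deletion it was 63, and 29 at a mean of at least 1000, 182 with no filter and 10 with the same total. The number at least 2-fold higher after LD than in Dicer-cKO MG, 43, was 22 at 3-fold, 19 at a mean of at least 1000, 96 with no filter, 10 with the same total and 74 with Gapdh. The counts at 1.5-fold were within 1.5 times of the main counts. Those with no filter include miRNAs at the lowest value, 260 in the wild type, 356 in the LD and 359 in the Dicer-cKO sample. Nothing is read from the unfiltered counts. The sets differ in size, with 104 miRNAs at a mean of at least 100, miR-9 and 36 others at a mean of at least 1000, and 602 with no filter. With the same total and with Gapdh alone the filter was applied anew to the rescaled means, and the sizes of those sets are not given here. A lower count at another filter or scaling is therefore not a lower share.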
